A study of Mus musculus with 6 samples.

Results

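The interleukin-1 (IL-1) family and its inflammasome machinery were followed through 10 genes of mouse dendritic cells: the ligands Il1a, Il1b and Il18, the antagonists Il1rn and Il18bp, the receptor subunit Il1rap, the sensor Nlrp3, the caspases Casp1 and Casp4, and the gasdermin Gsdmd. The genes were picked by symbol, and each symbol matched 1 of the 23398 genes in the deposited table. The cells were dendritic cells grown from mouse bone marrow in DMEM with serum and antibiotics, and for 12 hours they received either vehicle or nanoparticles of Ca(OH)2, calcium hydroxide. There were 3 libraries of nanoparticle-treated cells and 3 libraries of vehicle-treated cells, all of which came from this 1 kind of culture. The labels give no particle dose, mouse strain, age or growth factor. They do not say whether the libraries of a group came from separate mice or cultures, so the p-values measure only the spread between these libraries, which may be technical.

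IL-1α and IL-1β are cytokines that bind the same receptor, a pair of chains formed by IL-1R1 and the shared subunit IL-1RAP, and drive fever and inflammation. The antagonist IL-1Ra, the product of Il1rn, occupies that receptor without signalling, and IL-18BP, the product of Il18bp, traps IL-18 in solution. IL-1β and IL-18 are made as inactive precursors. An inflammasome, in which a sensor such as NLRP3 gathers the adaptor ASC and caspase-1, cuts both precursors and also gasdermin D, whose freed end forms pores through which the cytokines leave the cell. Caspase-11, the product of mouse Casp4, cuts gasdermin D after sensing bacterial lipopolysaccharide in the cytosol. RNA levels report the supply of these parts and not the cutting or release of the proteins.

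Expression was given in FPKM, the number of fragments per kilobase of gene and relative to a scale for each library. Read totals recovered from these values were 17284870 to 21979855 per library, which sets the counting error, and the lowest count behind any value of the 10 genes was 45 reads. Nanoparticle library 1 stood apart: its correlation of log2(FPKM + 1) over genes, which do not replicate a condition, with the other nanoparticle libraries was 0.9423 and 0.9282, against 0.9895 between those and 0.9926 to 0.9938 between vehicle libraries. Of 11 dendritic cell markers, 9 reached 1 FPKM in at least 3 libraries, with a summed level of 5405 to 5813 FPKM in vehicle and 3092 to 6877 FPKM with nanoparticles, most of it from Cd74 and H2-Ab1. The list did not move as 1: Cd209a (5.17 to 6.21 FPKM in vehicle, 0 to 0.0763 FPKM with nanoparticles, tested only through vehicle), Clec10a (5.63 to 7.62 and 0.507 to 1.04 FPKM) and Zbtb46 (3.66 to 4.15 and 1.74 to 2.76 FPKM) fell, Irf8 (8.47 to 8.82 and 18.4 to 24.1 FPKM) rose, 5 others did not pass, and Xcr1 and Flt3 were not tested, with Flt3 under 0.1 FPKM in each library (limma adjusted p for the 4 called = 3.7e-05, 3.0e-04, 0.0191 and 8.1e-04). All 10 macrophage markers reached that level, with a summed level of 895 to 1041 FPKM in vehicle and 1049 to 1286 FPKM with nanoparticles. Of 10 neutrophil markers 3 did, and their summed level was 35.8 to 40.1 FPKM in vehicle and 55.95 to 128.2 FPKM with nanoparticles, most of it from S100a8, with Ly6g, Elane and Mpo at or near 0. Of 7 mast cell and basophil markers 4 reached the level, with sums of 3.93 to 6.12 FPKM and 10.3 to 26.1 FPKM. No T and NK cell, B cell or erythroid marker did. The part of these cell types in the results below was not tested.

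Each gene's log2(FPKM + 1) was compared between groups in limma, over the 10682 genes that reached 1 FPKM in 3 or more libraries, with Benjamini-Hochberg adjustment over all of them and a threshold of 0.05. All 10 genes were at or above 1 FPKM in each of the 6 libraries, so none entered the test only through the group where it was high. Of the 10, 8 rose with nanoparticles (Il1a, Il1b, Il1rn, Il18bp, Nlrp3, Casp1, Casp4 and Gsdmd), 0 fell, and Il18 and Il1rap did not pass. For all tested genes, 33.2% were called in either direction and 17.0% as higher. The same 8 were called without nanoparticle library 1 (background 64.8% in either direction, 34.3% higher and 30.5% lower) and with libraries scaled by total reads (44.2%, 10.4% and 33.8%). In all 10 genes each nanoparticle library lay above each vehicle library, a separation upward seen in 25.9% of tested genes. The median log2 change of the 10 was 1.74, against 0.00 for all genes tested. In 9 of the 10 genes nanoparticle library 1 held the highest value of its group, as in 42.3% of tested genes, and in Gsdmd it held the lowest, as in 46.3%. Since these are bulk cultures, more cells of a type and more RNA per cell cannot be told apart.

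**Figure D1:**
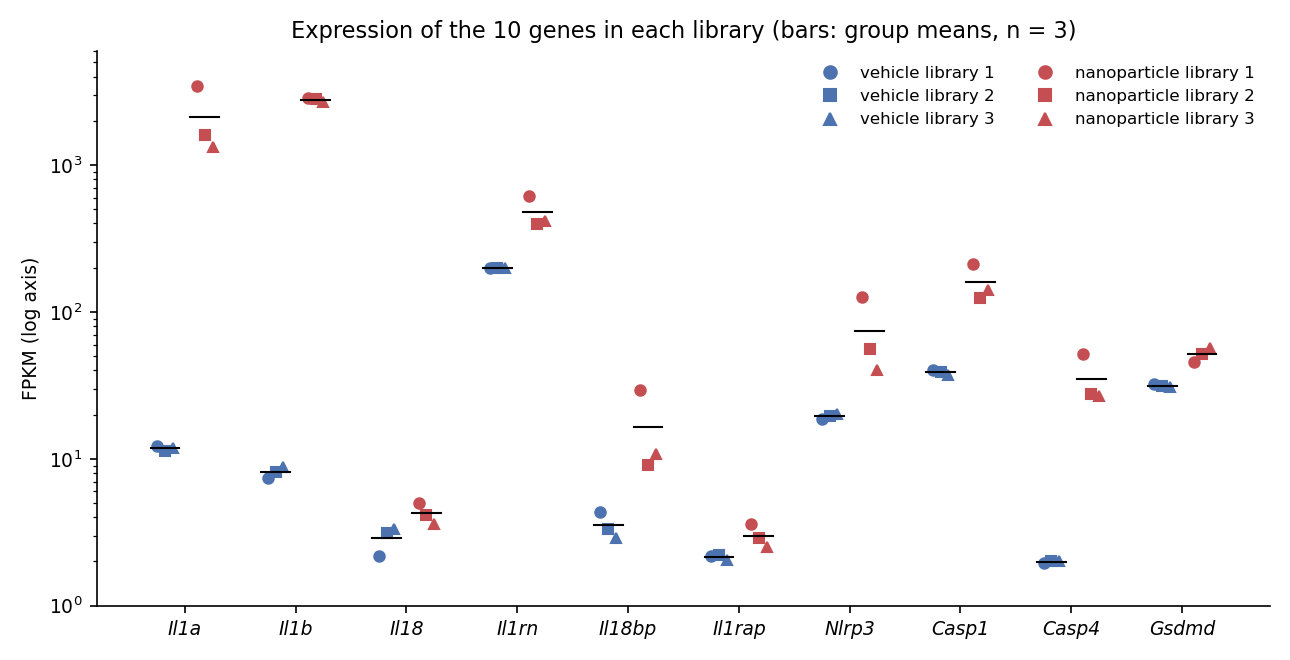
Expression of the 10 genes in FPKM on a log axis, with 1 point per library (vehicle in blue, nanoparticle in red, marker shape for the library number) and a bar at each group mean (n = 3). The nanoparticle points lie above the vehicle points in each gene, by the widest distance in Il1b and Il1a and the narrowest in Il1rap and Il18, and the circle of nanoparticle library 1 is the highest of its group in 9 genes.

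Il1b, which encodes the IL-1β precursor, showed the largest increase of the 10. It occupies bases 129364570 to 129371139 of chromosome 2, minus strand, in mouse build GRCm38 (GENCODE M21 annotation, as for all positions here unless RefSeq is named). Its level was 7.45, 8.12 and 8.74 FPKM in vehicle libraries 1 to 3 and 2866, 2814 and 2681 FPKM in nanoparticle libraries 1 to 3. The nanoparticle libraries were close to one another, with a coefficient of variation of 3.43%, and none came near a vehicle library. The mean level rose 344-fold, and the log2 change was 8.26 (SE 0.115, limma adjusted p = 2.0e-06), the 2nd largest increase among the tested genes. By mean FPKM, Il1b went from rank 4365 of all genes in vehicle to rank 22 with nanoparticles.

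Il1a, whose product IL-1α is active without cutting by caspase-1 and serves as an alarm signal of damaged cells, lies beside Il1b at bases 129299610 to 129309972, on the same strand. It stood at 12.3, 11.35 and 11.8 FPKM in the vehicle libraries and at 3426, 1607 and 1331 FPKM in the nanoparticle libraries. Unlike Il1b, its nanoparticle libraries were spread widely, with a coefficient of variation of 53.6%, and library 1 held 2.33 times the mean of the other two. The log2 change was 7.24 (SE 0.347, limma adjusted p = 8.1e-05) and was 6.84 without nanoparticle library 1. In mean FPKM Il1a moved from rank 3229 to rank 28.

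Both genes overlap an antisense transcript in the annotation, Gm14023 for Il1a and Il1bos for Il1b. Il1bos was at 0.0168 to 0.145 FPKM in vehicle and 2.33 to 3.62 FPKM with nanoparticles, and Gm14023 at 0.215 to 0.338 FPKM and 2.42 to 11.0 FPKM. Whether the counting used strand is not given in the sources used here, and reads of a gene and its antisense partner cannot then be told apart. At these levels the partners are small beside the cytokine genes.

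Il18 encodes the IL-18 precursor, a cytokine that drives interferon-γ production by T and NK cells. The gene occupies bases 50554827 to 50581840 of chromosome 9, plus strand. It was low in all libraries, at 2.19, 3.13 and 3.345 FPKM in vehicle and 4.99, 4.16 and 3.57 FPKM with nanoparticles, on 45 to 84 reads. The groups did not overlap, but the gap between vehicle library 3 and nanoparticle library 3 was small. The log2 difference of 0.43 (SE 0.164, 95% interval 0.04 to 0.83 before adjustment) did not pass (limma adjusted p = 0.0881).

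The RefSeq table for GRCm38.p6 gave start sites for the 10 genes except Gsdmd, and the 250 bases before the start are shown for the largest risers Il1b and Il1a, for Casp4, which had the largest increase outside the ligands, and for Il1rap, which did not pass. Each is 5′ to 3′ on the gene's strand, and capitals mark letters that match a searched motif.
Il1b, chr2:129371140-129371389, minus strand: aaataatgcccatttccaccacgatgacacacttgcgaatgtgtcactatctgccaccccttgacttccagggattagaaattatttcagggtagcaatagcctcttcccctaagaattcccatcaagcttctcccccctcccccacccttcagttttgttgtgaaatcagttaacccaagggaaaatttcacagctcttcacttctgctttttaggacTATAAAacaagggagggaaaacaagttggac
Il1a, chr2:129309973-129310222, minus strand: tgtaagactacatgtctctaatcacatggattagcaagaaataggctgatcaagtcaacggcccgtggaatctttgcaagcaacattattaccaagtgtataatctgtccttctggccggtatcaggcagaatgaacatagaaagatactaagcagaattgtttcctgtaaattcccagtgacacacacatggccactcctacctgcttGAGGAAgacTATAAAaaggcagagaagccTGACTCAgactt
Casp4, chr9:5308599-5308848, plus strand: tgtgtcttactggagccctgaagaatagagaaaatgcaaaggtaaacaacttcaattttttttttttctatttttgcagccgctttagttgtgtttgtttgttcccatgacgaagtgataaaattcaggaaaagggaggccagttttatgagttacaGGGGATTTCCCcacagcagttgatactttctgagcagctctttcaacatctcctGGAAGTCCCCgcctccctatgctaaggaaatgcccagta
Il1rap, chr16:26581455-26581704, plus strand: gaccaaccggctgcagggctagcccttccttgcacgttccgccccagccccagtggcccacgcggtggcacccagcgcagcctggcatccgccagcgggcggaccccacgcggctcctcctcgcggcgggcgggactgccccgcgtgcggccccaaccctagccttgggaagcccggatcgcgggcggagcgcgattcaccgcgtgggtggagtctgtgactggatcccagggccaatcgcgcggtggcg
The motifs were searched on both strands: the kappaB motif (by its usual consensus), the interferon-stimulated response element (by its usual consensus), the AP-1 site TGANTCA, the CRE TGACGTCA, the PU.1 core GAGGAA and TATAAA. Il1b and Il1a hold TATAAA, beginning 31 and 32 bases before the start, as do 12.4% of the 32851 windows of this length in the table. Il1a also holds GAGGAA 41 bases and TGACTCA 12 bases before its start, motifs found in 23.3% and 6.75% of windows. Casp4 holds a run of overlapping kappaB matches 93 and 92 bases before its start and another, GGAAGTCCCC, 39 bases before it, and 7.25% of all windows hold at least 1 such match. Neither the interferon-stimulated element (2.98% of windows) nor the CRE (1.55%) was in any of the 13 windows, which covered the 10 genes except Gsdmd. No searched motif was in the Il1rap window. A match is a description of letters and does not show that a factor binds there.

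The IL-1 receptor antagonist gene Il1rn was the most abundant of the 10 in vehicle cells, at rank 186 of all genes. Its position is chromosome 2, bases 24336853 to 24351494, plus strand. The vehicle libraries held 198.0, 199.0 and 198.6 FPKM and the nanoparticle libraries 617.5, 399.3 and 418.2 FPKM. The groups were well apart, and library 1 was again the highest. Il1rn rose 2.41-fold, which is 1.24 in log2 units (SE 0.194, limma adjusted p = 0.00417).

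Il18bp, at bases 102014885 to 102018690 of chromosome 7 (minus strand), rose from a low level. It was at 4.35, 3.35 and 2.88 FPKM in vehicle and 29.5, 9.03 and 10.7 FPKM with nanoparticles. All treated libraries were above the controls, but library 1 held 2.99 times the mean of the other two. The log2 change was 1.77 (SE 0.421, limma adjusted p = 0.0201), and without nanoparticle library 1 it was 1.27 (limma adjusted p = 4.2e-04). The call was lost when any 1 vehicle library was left out (limma adjusted p = 0.0534 to 0.0763) and, narrowly, with no filter on low values (limma adjusted p = 0.0521). Il18bp overlaps Numa1 on the other strand, which encodes a spindle protein and stood at 11.2 to 11.8 FPKM in vehicle and 6.40 to 11.2 FPKM with nanoparticles.

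**Figure D2:**
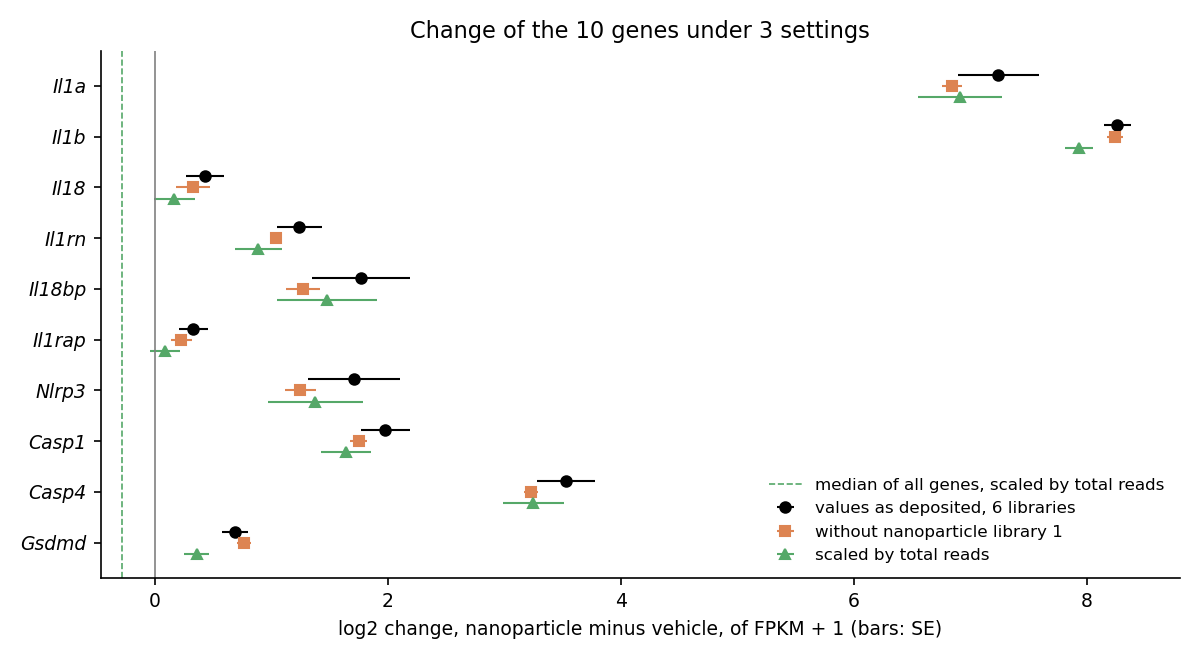
Log2 change of FPKM + 1, nanoparticle minus vehicle, for each of the 10 genes with its standard error, for the values as deposited (black circles), without nanoparticle library 1 (orange squares) and with libraries scaled by total reads (green triangles, with the median of all genes at -0.28 as a dashed line). The points lie to the right of 0 in each setting, from 8.26 in Il1b to 0.33 in Il1rap for the deposited values.

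The balance of agonist and antagonist was followed as the ratio of FPKM within a library, a quantity that the scaling between libraries cannot move. The change of a ratio is also free of gene length, while its level depends on the annotated lengths, such as the 5535 bases of merged exons for Il1rn. The ratio of Il1b to Il1rn was 0.0376, 0.0408 and 0.0440 in vehicle and 4.64, 7.05 and 6.41 with nanoparticles. The ratio thus went from far under 1 to above 1 in each treated library, a 146-fold rise in the geometric mean (log2 difference 7.19). For Il1a to Il1rn it was 0.0620, 0.0570 and 0.0596 in vehicle and 5.55, 4.03 and 3.18 with nanoparticles, a 69.6-fold rise. Per length, the RNA of each of these ligands was therefore under 0.1 times the antagonist's in each control library and at least 3.18 times it in each treated library.

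The IL-18 pair went the other way. Il18 to Il18bp was 0.504, 0.934 and 1.16 in vehicle and 0.169, 0.461 and 0.333 with nanoparticles, a fall of the geometric mean by 1.47 on the log2 scale. The treated libraries were all below the controls, though vehicle library 1 and nanoparticle library 2 nearly met. Without nanoparticle library 1 the log2 difference was -1.06. Il1a to Il1b fell as well, from 1.65, 1.40 and 1.35 to 1.195, 0.571 and 0.497, so that Il1b was the more abundant ligand in nanoparticle libraries 2 and 3 but not in library 1, and the log2 difference of -1.07 was -1.46 without library 1. Each of these 4 ratios separated the groups, and the two-sided exact permutation test gave p = 0.1 for each, its minimum with 3 libraries against 3, or 0.12 after Benjamini-Hochberg adjustment over the 6 ratios computed, so none can pass 0.05.

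**Figure D3:**
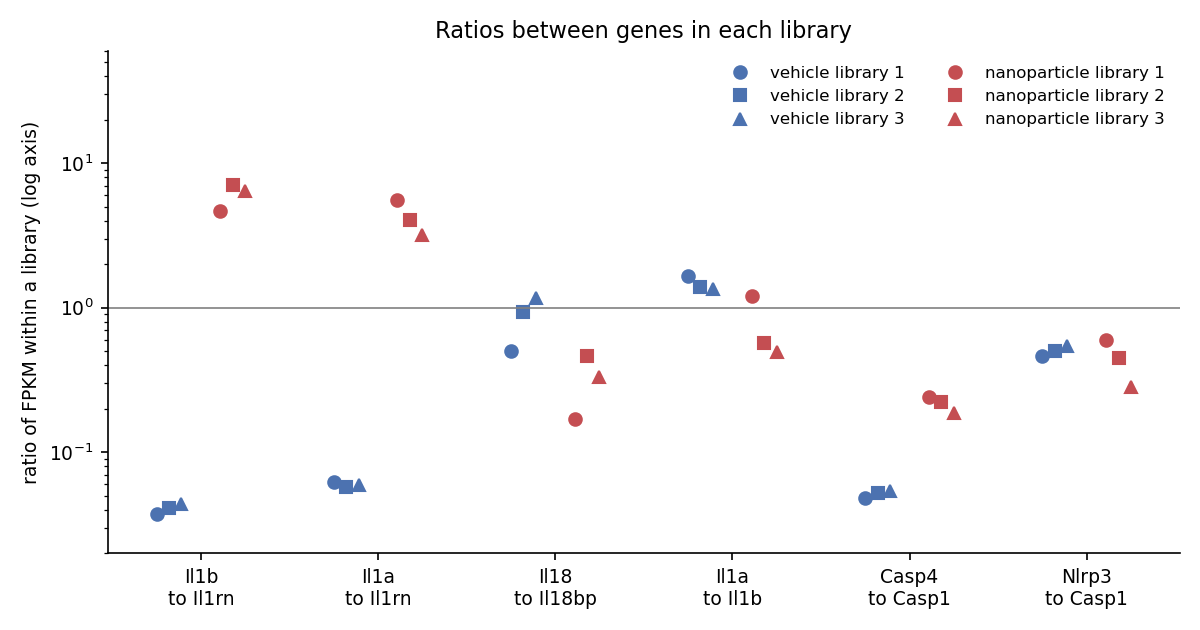
Ratio of FPKM of 2 genes within a library, on a log axis with a line at 1, for 3 vehicle libraries (blue) and 3 nanoparticle libraries (red). The Il1b to Il1rn and Il1a to Il1rn points move from under 0.1 to above 3, the Il18 to Il18bp points move down, and the Nlrp3 to Casp1 points overlap.

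Il1rap encodes the accessory chain shared by the receptors for IL-1, IL-33 and IL-36. It spans bases 26581704 to 26730117 of chromosome 16, plus strand. Its level was 2.18, 2.225 and 2.04 FPKM in vehicle and 3.60, 2.87 and 2.51 FPKM with nanoparticles. The treated libraries were each slightly above the controls, and the log2 difference of 0.33 (SE 0.125, 95% interval 0.03 to 0.63 before adjustment) did not pass (limma adjusted p = 0.0863). It passed narrowly without nanoparticle library 3 (log2 change 0.42, limma adjusted p = 0.0489).

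The partner chains of IL-1RAP and the other receptors of the family were lower in treated cells. From a list of 8 receptor genes 6 were in the table and tested, of which 5 fell, 0 rose and Il1rap did not pass, against 16.2% of all tested genes called lower. The list's median log2 change was -0.81. Il1rl1, the IL-33 receptor ST2, was at 10.5, 9.26 and 10.1 FPKM in vehicle and 0.0533, 1.10 and 0.933 FPKM with nanoparticles. It was near absent from library 1, with 6 reads, and the log2 change was -2.75 (SE 0.265, limma adjusted p = 7.0e-04). Il18r1 and Il18rap, the 2 chains of the IL-18 receptor, fell from 1.35 ± 0.291 to 0.0699 ± 0.0611 FPKM and from 2.07 ± 0.364 to 0.161 ± 0.137 FPKM (SD, n = 3 each, limma adjusted p = 0.00121 and 8.4e-04). In nanoparticle library 1 they rested on 0 reads and 1 read. Both entered the test only through the vehicle libraries and had to differ, so they do not add to the count as support.

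Il1r1, the signalling receptor for IL-1α and IL-1β, was lower by less: 1.81, 1.66 and 1.66 FPKM in vehicle and 1.21, 1.09 and 0.864 FPKM with nanoparticles (log2 change -0.40, SE 0.105, limma adjusted p = 0.0293). Its call was lost in 5 of the 6 fits that left out 1 library, with limma adjusted p up to 0.115, and kept without nanoparticle library 1. Il1r2, a decoy receptor that binds IL-1 without signalling, fell from 12.3, 15.0 and 16.0 FPKM to 3.02, 7.41 and 6.53 FPKM (log2 change -1.27, SE 0.289, limma adjusted p = 0.0169). It was the single one of the 3 tested antagonists and decoys that fell, while Il1rn and Il18bp rose (background 16.2% lower and 17.0% higher). Without vehicle library 2 or 3 the Il1r2 call was lost (limma adjusted p = 0.065 and 0.0687). Mast cells and neutrophils also use receptors of this family. Of the mast cell and basophil markers, Gata2 fell from 2.88 ± 0.440 to 1.31 ± 0.455 FPKM (SD, n = 3 each, limma adjusted p = 0.019). Kit was at 1.28 ± 0.0622 and 0.852 ± 0.210 FPKM and did not pass. Cpa3, at 0.0993 to 1.29 FPKM in vehicle and 0.0807 to 1.47 FPKM with nanoparticles, did not pass either (limma adjusted p = 0.683). Mcpt8 was at or near 0. Hdc, at 0.196 to 0.474 FPKM in vehicle and 6.69 to 24.1 FPKM with nanoparticles, made up most of the higher sum in treated cells. The summed neutrophil markers were higher in treated cells, but the list was mixed. S100a8 and Csf3r were called higher (limma adjusted p = 0.0216 and 2.3e-04), Csf3r only through the nanoparticle libraries. S100a9 did not pass (limma adjusted p = 0.246). S100a9 and Ngp lay below each vehicle library in nanoparticle library 1 (0.352 and 0.0501 FPKM) and above them in libraries 2 and 3. Cxcr2, not tested, was at 0.395 to 0.801 FPKM in vehicle and 0 to 0.139 FPKM with nanoparticles. The part of mast cells or neutrophils in the receptor changes was not tested.

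These receptor genes lie side by side. In the 477.6 kb of chromosome 1 from 40074079 to 40551705, the annotation places 6 protein-coding genes, in the order Il1r2, Il1r1, Il1rl2, Il1rl1, Il18r1 and Il18rap, and each was called lower (background 16.2%). Of the 6, Il18r1 and Il18rap had to differ, as said above, which leaves 4 tested through both groups. Among these 4, Il1rl1 met the filter through vehicle and reached 1 FPKM in nanoparticle library 2 alone (1.10 FPKM). The smallest changes of the 4 were those of Il1r1 and of the IL-36 receptor gene Il1rl2, named after its values were seen, at -0.49 (limma adjusted p = 0.0408, up to 0.147 with 1 library left out). With 1 library left out, the call was lost in 5 of the 6 fits for Il1r1, in 5 for Il1rl2 and in 2 for Il1r2. Only Il1rl1 of the 4 kept its call in each such fit. The ligand genes are also clustered: Il1a and Il1b share 71.5 kb of chromosome 2. Il1rn ends a 198.3 kb stretch of the same chromosome that starts at 24153161 with Il1f8 and holds 6 protein-coding genes. Of these 6, 3 are in the table and all 3 were called higher (background 17.0%). The other called pair is Il1f9 and Il1f6, the genes of IL-36γ and IL-36α. Il1f9 rose from 11.2, 10.5 and 10.7 FPKM to 39.7, 56.8 and 51.8 FPKM (log2 change 2.08, SE 0.150, limma adjusted p = 2.6e-04). Il1f6 had 1, 3 and 0 reads in vehicle, at or under a floor of 3 reads, and 46, 35 and 73 reads with nanoparticles, and it entered the test only through the latter. Il33, an alarm cytokine named after its values were seen, went from 2.24, 2.10 and 2.07 FPKM to 40.7, 7.83 and 6.65 FPKM. Library 1 held most of that increase, and the log2 change of 2.17 (limma adjusted p = 0.0403) was 1.39 without it. The Il33 call was lost in 4 of the 6 fits that left out 1 library (limma adjusted p up to 0.113) and with libraries scaled by total reads (limma adjusted p = 0.0505). Counted with Il1a, Il1b and Il18, 5 of 6 tested ligands rose (background 17.0%), 1 of them (Il1f6) tested through the nanoparticle libraries alone. With libraries scaled by total reads, 4 of the 6 rose (background 10.4%).

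**Figure D4:**
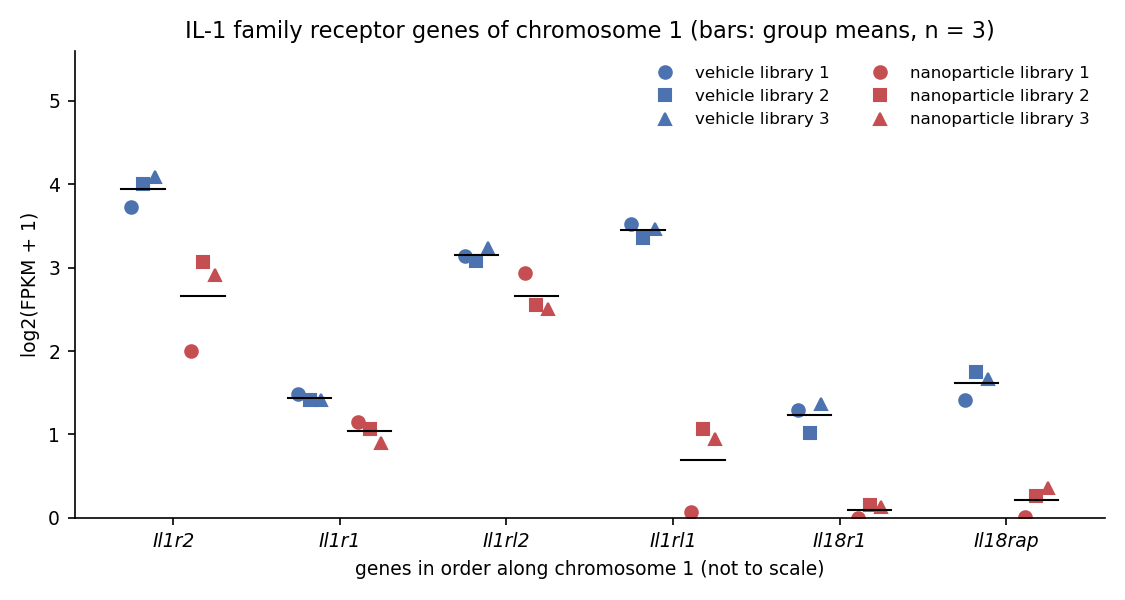
Level as log2(FPKM + 1) of the 6 neighbouring IL-1 family receptor genes of chromosome 1 in each library, with bars at the group means (n = 3). The nanoparticle points (red) lie below the vehicle points (blue) in each gene, and nanoparticle library 1 (circle) is at or near 0 for Il1rl1, Il18r1 and Il18rap.

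Nlrp3 encodes the inflammasome sensor that answers to potassium loss, crystals and particles taken up by cells. Its position is chromosome 11, bases 59541568 to 59566956, plus strand. Its level was 18.5, 19.5 and 20.3 FPKM in vehicle and 126.6, 55.95 and 40.3 FPKM with nanoparticles. All treated libraries were above the controls, and library 1 held 2.63 times the mean of the others. The log2 change was 1.71 (SE 0.395, limma adjusted p = 0.0182) and 1.25 without nanoparticle library 1 (limma adjusted p = 2.9e-04). With any 1 vehicle library left out, the call was lost (limma adjusted p = 0.0613 to 0.0682).

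Other sensors moved in both directions. With Nlrp3 counted, 5 of the 10 tested rose, 3 fell and 2 did not pass (17.0% and 16.2% of all tested genes rose and fell), with a median log2 change of 0.39. With libraries scaled by total reads the counts were 3 higher and 3 lower (background 10.4% and 33.8%). Of the 8 called, Mefv (0.124 to 0.339 FPKM in vehicle, 1.39 to 3.28 FPKM with nanoparticles) entered the test only through the nanoparticle libraries, and Nlrp1b and Nlrp10 only through the vehicle libraries, so these 3 had to differ. Mefv, the gene of the sensor pyrin, is outside the naming rule. Nlrc4, which gathers caspase-1 after bacterial flagellin is sensed, rose from 2.45 ± 0.0740 to 5.54 ± 0.453 FPKM (SD, n = 3 each, limma adjusted p = 8.6e-04). The DNA sensor Aim2, named after its values were seen, was at 10.8, 11.4 and 12.4 FPKM in vehicle and 18.4, 16.4 and 16.4 FPKM with nanoparticles (log2 change 0.53, limma adjusted p = 0.00908), but the log2 change was 0.21 and did not pass with libraries scaled by total reads (limma adjusted p = 0.172), and the call was also lost without vehicle library 1 or 2 (limma adjusted p = 0.0553 and 0.0541). Nlrp1a, Nlrp1b and Nlrp10 fell, by 1.06, 1.28 and 1.07 on the log2 scale (limma adjusted p = 9.4e-04, 5.1e-04 and 0.00172). Nlrp1a and Nlrp1b are near copies of each other, so the split of reads between them is uncertain, as it is for the Naip genes.

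The caspase genes Casp1 and Casp4 are neighbours on chromosome 9 (plus strand, bases 5298517 to 5307265 and 5308828 to 5336783). Casp1 stood at 40.2, 39.05 and 37.4 FPKM in vehicle and 213.5, 124.8 and 142.1 FPKM with nanoparticles. It was the more abundant caspase in each library and rose 4.12-fold, which is 1.98 in log2 units (SE 0.209, limma adjusted p = 9.3e-04). Casp4 was low in vehicle, at 1.95, 2.03 and 2.00 FPKM, and stood at 51.3, 27.6 and 26.6 FPKM with nanoparticles. Its rise of 17.7-fold was the third largest of the 10 genes and rank 93 among the tested genes (log2 change 3.53, SE 0.252, limma adjusted p = 2.5e-04). Both calls held in each fit that left out 1 library, with log2 changes of 1.75 to 2.14 for Casp1 and 3.23 to 3.69 for Casp4.

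Within a library the ratio of Casp4 to Casp1 was 0.0485, 0.0519 and 0.0535 in vehicle and 0.240, 0.221 and 0.187 with nanoparticles. The groups were apart, and the log2 difference was 2.07 (exact permutation test, two-sided, p = 0.1, adjusted p = 0.12). The ratio of Nlrp3 to Casp1 overlapped between the groups, at 0.461 to 0.543 in vehicle and 0.284 to 0.593 with nanoparticles (exact permutation p = 0.6, log2 difference -0.24), and its sign turned without nanoparticle library 3 (0.04). Casp12, the third gene of this 74.5 kb stretch, was at or under 0.175 FPKM in each library and was not tested. Of 6 tested genes on the list of caspases, inhibitors and Card19, 3 rose, 0 fell and 3 did not pass. The background was 17.0% higher and 16.2% lower. The third riser was Card19, at 43.7 ± 2.46 and 73.7 ± 16.3 FPKM (SD, n = 3 each, limma adjusted p = 0.0267), whose call was lost when libraries were scaled by total reads (limma adjusted p = 0.123) and in 5 of the 6 fits that left out 1 library. Serpinb6a, a serine protease inhibitor gene, was at 41.2, 40.8 and 39.9 FPKM in vehicle and 46.4, 57.8 and 62.8 FPKM with nanoparticles and did not pass (limma adjusted p = 0.0516). It was called higher without nanoparticle library 1 (log2 change 0.56, limma adjusted p = 2.4e-04) and, narrowly, with no mean-variance trend or a filter at 5 FPKM (limma adjusted p = 0.0476 and 0.049).

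Gsdmd, which encodes the pore-forming gasdermin D, lies on chromosome 15, bases 75862327 to 75867408, plus strand. Its level was 32.1, 31.1 and 30.6 FPKM in vehicle and 45.7, 52.0 and 56.5 FPKM with nanoparticles. The rise was modest but tight, with nanoparticle library 1 the lowest of its group. The fold was 1.64 and the log2 change 0.69 (SE 0.114, limma adjusted p = 0.00499), and with libraries scaled by total reads it was 0.36 (limma adjusted p = 0.0328). Of 4 tested pore and release genes, Gsdmd included, 3 rose and 0 fell (background 17.0% higher and 16.2% lower). Ninj1, which ruptures the membrane of dying cells, rose from 51.9 ± 3.29 to 162.2 ± 23.6 FPKM (limma adjusted p = 4.8e-04), and Chmp4b, part of the repair machinery that removes gasdermin pores, rose from 105.0 ± 2.19 to 213.8 ± 40.2 FPKM (SD, n = 3 each, limma adjusted p = 0.00485). Pdcd6ip, another repair gene, was at 40.96 ± 1.19 and 37.5 ± 0.840 FPKM and did not pass (limma adjusted p = 0.355), but it was called lower with libraries scaled by total reads (log2 change -0.46, limma adjusted p = 0.00889).

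The remaining parts of the pathway changed less evenly. Of 13 genes for the NLRP3 adaptor and regulators, 4 rose, 2 fell and 7 did not pass, with a median log2 change of 0.06. For all tested genes, 17.0% rose and 16.2% fell. Scaling by total reads gave 10.4% higher, 33.8% lower and a median of -0.28 for all tested genes. With it, 4 of the 13 were higher and 4 lower, with a median of -0.28. The risers were Gbp5, an interferon-induced GTPase linked to NLRP3 assembly (1.29, 1.42 and 1.57 FPKM in vehicle and 211.5, 70.1 and 60.7 FPKM with nanoparticles, log2 change 5.33, or 4.77 without nanoparticle library 1, which held 3.23 times the mean of the other two), Trim30a (log2 change 2.58), the ATP-gated channel gene P2rx4 (0.77) and the channel gene Panx1 (0.64), with limma adjusted p of 4.6e-04, 8.1e-04, 0.0022 and 0.00473. The 2 that fell, Kcnk6 and Btk, were named after their values were seen. Their log2 changes were -1.16 and -0.33 (limma adjusted p = 0.0159 and 0.0415). Pycard, which encodes the adaptor ASC and was named after its values were seen, did not pass (log2 change -0.83, SE 0.466, limma adjusted p = 0.223). Its levels were 19.4, 19.0 and 19.2 FPKM in vehicle and 4.14, 14.4 and 17.5 FPKM with nanoparticles, so library 1 was far below the rest, and without it the log2 change was -0.26 (limma adjusted p = 0.034). Thus in library 1 the sensor Nlrp3 was at its highest and the adaptor at its lowest of the 6 libraries.

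Of 17 genes of IL-1 receptor signalling, 6 rose, 3 fell and 8 did not pass, with a median log2 change of 0.11, where 17.0% and 16.2% of all tested genes rose and fell. Of the 3 that fell, Irak1bp1 (means of 1.41 FPKM in vehicle and 0.462 FPKM with nanoparticles) entered the test only through vehicle and had to differ. It is outside the naming rule. With libraries scaled by total reads, 4 of the 17 were higher and 6 lower, with a median of -0.20. That scaling moved the median of all tested genes to -0.28, with 10.4% of them higher and 33.8% lower. The 4 with the smallest adjusted p all rose. They were Zc3h12a, an RNase that degrades cytokine mRNAs (9.63 ± 1.07 to 81.7 ± 11.9 FPKM, log2 change 2.95), Peli1, a ubiquitin ligase (1.75), Irak3, an inhibitory kinase-like protein of the pathway (1.86), and the kinase gene Irak2 (0.87), with limma adjusted p of 8.4e-05, 1.1e-04, 4.7e-04 and 0.00404. Over all lists, 55 tested genes were not among the 10. Of the 55, 20 rose, 14 fell and 21 did not pass, where 17.0% and 16.2% of all tested genes rose and fell. Among the 55, 7 entered the test through 1 group alone and all 7 were called. With libraries scaled by total reads the split of the 55 was 14 higher and 20 lower (background 10.4% and 33.8%).

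**Figure D5:**
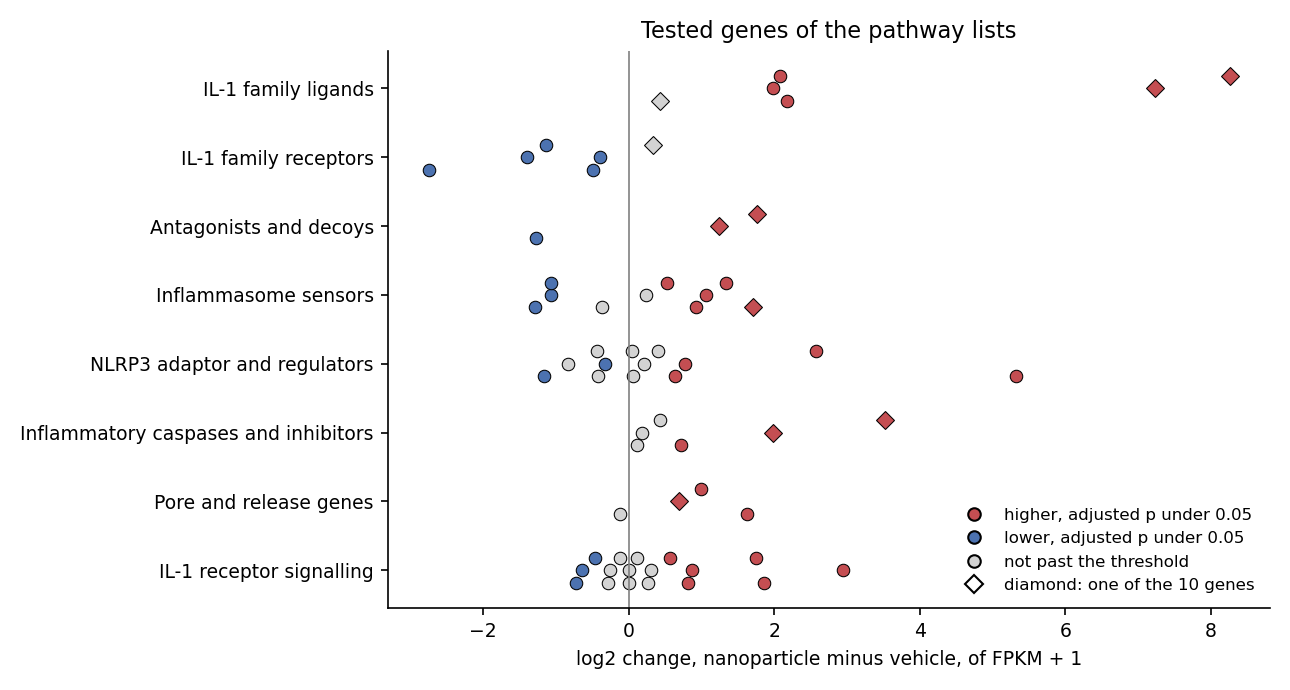
Log2 change of FPKM + 1, nanoparticle minus vehicle, for each tested gene of the 8 pathway lists (points shifted up and down within a list so that they can be seen), coloured by call, with diamonds for the 10 genes. The ligands lie to the right, with Il1b at 8.26 and Il1a at 7.24, while 5 of 6 receptors lie to the left in blue.

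For 4 of the genes, the tested genes with the nearest pattern were found by Euclidean distance between log2(FPKM + 1) profiles over the 6 libraries, each centred on its vehicle mean. Nearest to Il1b were Il6 (distance 0.348), Cxcl2 (1.20) and Ptgs2 (1.51), a cytokine, a chemokine and a prostaglandin synthesis gene. Il6 was listed at 0 in 2 vehicle libraries. Nearest to Il1a were Il12b (0.587), Isg15 (0.828) and Rsad2 (0.842), a cytokine subunit and a pair of interferon-induced genes. Nlrp3 was nearest to Samd9l (0.217), Tnfrsf8 (0.264) and Tlr1 (0.297), each of which also had its highest level in nanoparticle library 1, at 81.9, 10.8 and 17.7 FPKM. Il18 was nearest to Tnfrsf14 (0.166), Gm37768 (0.200) and Dnajc21 (0.221), with log2 changes of 0.39 to 0.47. Vehicle means were under 1 FPKM for Il6 (0.0197), Ptgs2 (0.207), Il12b (0.456) and Tnfrsf8 (0.718). These genes entered the test only through the nanoparticle libraries. The added 1 FPKM understates changes from such levels, so a small distance for them does not mean a like fold change. All of these distances are descriptions over 6 libraries and carry no test.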

How the data were processed

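RNA of vehicle- and nanoparticle-treated dendritic cells (3 libraries each) was sequenced from total RNA with a NEBNext Ultra II kit, per the labels' protocols. The submitters' processing notes name CASAVA, STAR 2.5, HTSeq, edgeR 3.16.5 and DESeq2 2, and the builds hg19 and mm10, without roles. The authors deposited 2 tables with identical values (140388 of 140388), of which 1 was used. The unit, FPKM, was deduced here and is not stated by the authors: multiplied by merged exon length (GENCODE M21, 23388 of 23398 IDs matched) and 1 scale per library, 95.8% to 96.1% of values above 0 were within 0.01 of a whole number of reads. For 581 genes with at least 50 mean reads another length had to be searched. The library scales are not the read totals, so directions are relative to the authors' scaling. Merged lengths understate genes whose expressed transcript is shorter.

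Counts of reads were used only for depth and for the total-read scaling. limma 3.58.1 in R 4.3.3 was fitted to log2(FPKM + 1), which understates changes of low genes, with group as the single term and a mean-variance trend (prior degrees of freedom 2.33). The fit was tried on simulated counts with the same dispersion in all libraries and no deviating library. That trial therefore does not bear on calls that depend on nanoparticle library 1. For ratios, scipy 1.17.1 (Python 3.11.15) gave exact permutation tests. The 10 genes, the lists and the rules were chosen with earlier results of these data known. Genes named were the 10, up to 4 per list with the smallest adjusted p, the receptors of IL-1 and IL-18, and 3 genes of nearest pattern for each of 4. Il33, Il1rl2, Aim2, Pycard, Kcnk6, Btk, Mefv, Casp12, Irak1bp1 and the cell type markers named lie outside this rule and were chosen after their values were seen. No protein sequence is shown. Alternatives were other pseudocounts, filters and scalings, no trend, a replicate block and each library left out. Same-numbered libraries share only a number (correlations of deviations 0.0654, 0.1133 and -0.0577).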

Additional observations from a re-analysis of the deposited data

How the results depend on the processing

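All 10 genes kept a positive log2 change in each fit run, with Il18 and Il1rap not tested under the filter at 5 FPKM. Without 1 library in turn, the log2 change ran from 8.21 to 8.31 for Il1b, 6.84 to 7.52 for Il1a, 0.30 to 0.53 for Il18, 1.04 to 1.35 for Il1rn, 1.27 to 2.08 for Il18bp, 0.23 to 0.42 for Il1rap, 1.25 to 2.06 for Nlrp3, 1.75 to 2.14 for Casp1, 3.23 to 3.69 for Casp4 and 0.62 to 0.77 for Gsdmd, and 6 to 9 of the 10 were called. With no filter Il18bp, at 1.77, was not called (limma adjusted p = 0.0521), where more genes are tested. The ratio of Nlrp3 to Casp1 reversed without nanoparticle library 3, to 0.04, within a range of -0.49 to 0.04, and the cause was not tested. The other ratios kept their sign, over 7.07 to 7.37 for Il1b to Il1rn, 5.91 to 6.31 for Il1a to Il1rn, -1.82 to -1.06 for Il18 to Il18bp, -1.46 to -0.82 for Il1a to Il1b and 1.99 to 2.17 for Casp4 to Casp1.

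Over all genes, 3550 were called, 1817 higher and 1733 lower. With 1 library left out the total was 2141 to 6923, with 1114 to 3660 higher and 1027 to 3263 lower; the highest total was without nanoparticle library 1, and all 3550 genes were among them. Scaling by total reads gave 1108 higher and 3613 lower, and the upper quartile gave 2720 lower and a median of all genes of -0.17. A filter at 5 FPKM, which tests fewer genes, gave 975 lower. Of the other pathway genes, 14 were called lower, 6 with that filter, and 15 to 25 were called higher and 8 to 20 lower with 1 library left out. Replicate numbers do not pair the libraries. A replicate block gave 2785 calls and still called 8 of the 10 genes. Low genes such as Il18, with 45 to 84 reads, carry the widest counting error.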
